A study of Homo sapiens and Mus musculus with 76 samples.

Results

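Smart-Seq2 variant 3 is 1 of 4 altered versions of the Smart-Seq2 protocol that the series applied to single HEK293T cells, and it is set here beside Smart-Seq2 without a variant. The labels give 6 single HEK293T cells to variant 3 and 7 to Smart-Seq2, out of 76 libraries in 15 groups. Cells were assigned to the groups by these labels alone. HEK293T is a human embryonic kidney line, grown in culture and untreated as far as the labels say, and every library was described as polyadenylated RNA lysed in the buffer of a commercial SMARTer kit. The labels do not say in which step variant 3 departs from Smart-Seq2. They name neither the culture, plate nor day of a cell, so the 6 variant 3 cells and the 7 Smart-Seq2 cells each count as 1 sample. Differences between the groups are therefore given as levels with their spread over cells and with counting intervals, without a test. Other HEK293T libraries are given beside them: single cells of variant 1 (8), variant 2 (8), variant 4 (6) and SMART-Seq (4), and 9 Smart-Seq2 libraries of pooled cells, 3 each from 100, 50 and 10 cells.

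Smart-Seq2 copies polyadenylated RNA from a single cell with a reverse transcriptase that, on reaching the end of the RNA, switches to a short helper oligonucleotide. The full-length cDNA then carries a known sequence at both ends and is amplified by PCR before sequencing. How evenly RNAs of different base composition come through copying and amplification is a known concern for such protocols, because RNA and DNA rich in G and C form stable secondary structure and melt at higher temperature. A gene can thus be low in a library either because its RNA was scarce in the cell or because its cDNA was made or amplified poorly, and in these data these cannot be told apart for a single gene.

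The genes that separated variant 3 from Smart-Seq2 differed in base composition, which can be read from their coding sequence. Below are 90 coding bases from each of 8 genes, chosen because the results turn on them, with G and C in capitals. Each stretch is the one in a single coding exon whose GC content is nearest that of the whole transcript. They come from GENCODE 29 transcripts, and their coordinates are on GRCh38, a later build than the hg19 of the counts. The first 4 genes were far lower in variant 3.
BSG: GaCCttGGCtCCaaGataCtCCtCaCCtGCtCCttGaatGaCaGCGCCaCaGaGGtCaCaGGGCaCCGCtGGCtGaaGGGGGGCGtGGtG
COPE: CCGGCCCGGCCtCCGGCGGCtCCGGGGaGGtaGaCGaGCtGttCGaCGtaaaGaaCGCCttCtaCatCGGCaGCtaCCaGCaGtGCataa
ATP5D: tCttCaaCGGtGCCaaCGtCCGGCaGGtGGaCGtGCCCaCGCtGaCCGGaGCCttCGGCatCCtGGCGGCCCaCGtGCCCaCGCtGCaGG
POLR2E: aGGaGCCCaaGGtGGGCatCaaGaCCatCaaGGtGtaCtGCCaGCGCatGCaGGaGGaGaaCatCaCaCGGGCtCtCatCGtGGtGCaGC
The next 3 were higher in variant 3, and POLR2B, a subunit of the same enzyme as POLR2E, was not lower.
TOB1: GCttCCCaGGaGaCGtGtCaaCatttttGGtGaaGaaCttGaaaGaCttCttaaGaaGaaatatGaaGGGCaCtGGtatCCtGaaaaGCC
NDUFB3: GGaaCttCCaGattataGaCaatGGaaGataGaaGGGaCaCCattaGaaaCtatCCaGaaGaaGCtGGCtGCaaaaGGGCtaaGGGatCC
DDX47: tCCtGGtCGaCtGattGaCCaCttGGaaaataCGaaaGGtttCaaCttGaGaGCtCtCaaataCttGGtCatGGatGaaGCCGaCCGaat
POLR2B: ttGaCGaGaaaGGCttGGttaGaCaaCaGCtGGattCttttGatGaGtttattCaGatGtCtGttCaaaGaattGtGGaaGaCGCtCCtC
The stretch of BSG lies in exon 3 of 9 at chr19:579526-579615 on the plus strand and is 62.2% GC, in a transcript of 62.7% GC. COPE is shown from exon 1 of 10 at chr19:18919243-18919332, minus strand, with 63.3% GC in the stretch and 62.9% in the transcript. For ATP5D it is exon 2 of 4 at chr19:1242460-1242549, plus strand, 70.0% in the stretch and 69.6% in the transcript. POLR2E is shown from exon 3 of 8 at chr19:1091818-1091907, minus strand, with 58.9% and 59.4%. The TOB1 bases come from exon 2 of 2 at chr17:50863872-50863961, minus strand, with 42.2% GC in the stretch and 42.1% in the transcript. NDUFB3 (exon 2 of 3, chr2:201078924-201079013, plus strand) has 44.4% and 44.1%, DDX47 (exon 5 of 12, chr12:12821969-12822058, plus strand) 44.4% and 44.4%, and POLR2B (exon 3 of 25, chr4:56990756-56990845, plus strand) 41.1% and 40.8%.

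Reads assigned to genes numbered 7.63 to 27.9 M in variant 3 cells (1 M being 1000000 reads), with a median of 16.7 M, and 5.29 to 16.6 M in Smart-Seq2 cells, with a median of 11.7 M. Levels are given as CPM, the reads of a gene per M of gene reads, taken over the reads summed across the cells of a group. The 95% Poisson intervals cover counting error only, since PCR copies without molecular identifiers are not independent molecules. Smart-Seq2 cell 2, the shallowest, stood apart: its 47 G2/M genes summed to 50595 CPM, the highest of the 7, and it had the fewest genes of its group. Variant 3 cell 5 gave 36.6% of its reads to its 100 most abundant genes, against 17.7 to 20.7% in the other 5 cells. Without these 2 cells the main counts and the difference in genes detected moved little, and their values stand beside the results. Genes that mark HEK293T cells, VIM, KRT8, KRT18 and 13 others, summed to 1231 to 2972 CPM in variant 3 cells and 1790 to 2988 CPM in Smart-Seq2 cells. Of these markers 11 were at 10 CPM or more in 1 group. Among the 11, 1 (9.09%) was at least 2-fold higher in variant 3 and 7 (63.6%) lower, against 19.9% and 43.1% of all genes. Marker lists of 7 other cell types summed to at most 43.2 CPM in any variant 3 cell and 184 CPM in any Smart-Seq2 cell, the highest being fibroblast genes in both groups.

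Fewer genes were detected in variant 3 cells. With every cell thinned to 5 M gene reads, variant 3 cells had a read for 6520 genes at the lowest, 8720 at the median and 9961 at the highest. Smart-Seq2 cells had 10214, 11786 and 12371. The groups did not overlap, and the mean of variant 3 was 8586 ± 1374 genes against 11502 ± 710 in Smart-Seq2 (SD over 6 and 7 cells). Without variant 3 cell 5 and Smart-Seq2 cell 2 the difference of the means was -3391 genes. At the same depth variant 1 cells had 10809 to 12341 genes, variant 2 cells 9855 to 12378, variant 4 cells 10402 to 12230 and SMART-Seq cells 7516 to 10421. Within variant 3 the 3 cells sequenced to 22.3 M reads or more had 6520, 7704 and 8103 genes after thinning, below the 9337, 9890 and 9961 of the 3 cells with 7.63 to 11.2 M. No such split by depth is named in the labels, and its part in the result was not tested.

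**Figure D1:**
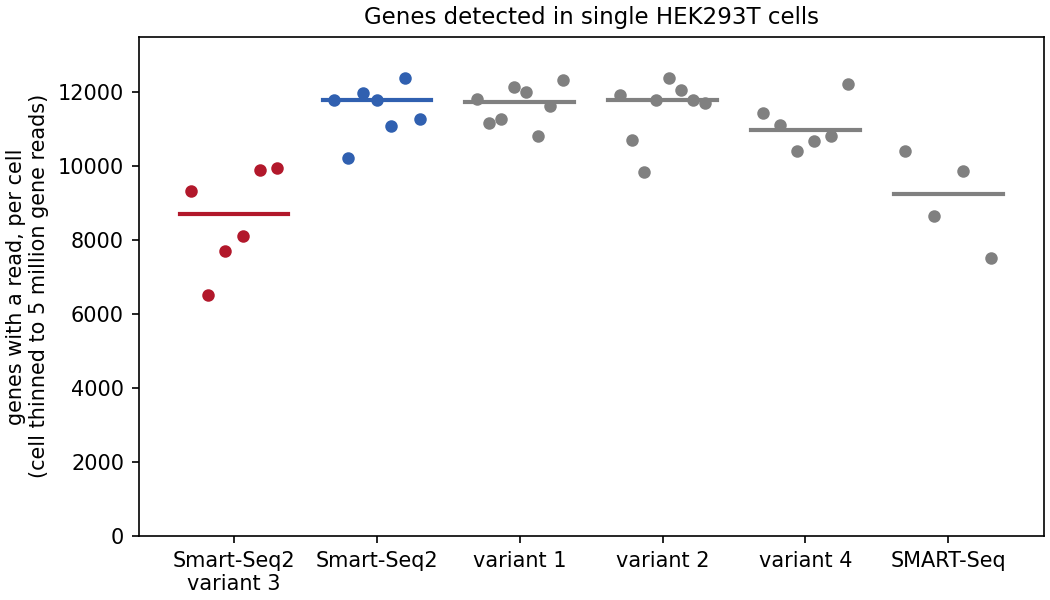
Genes with at least 1 read in single HEK293T cells thinned to 5 M gene reads. Each point is a cell and each line the median of its group. The 6 variant 3 cells lie between 6520 and 9961 genes, all under the 10214 to 12371 genes of the 7 Smart-Seq2 cells. The 4 SMART-Seq cells lie between 7516 and 10421 genes, and the lowest variant 3 cell is below them.

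The genes read in few variant 3 cells were rich in GC. Cells with a read were counted from all reads, without thinning, among the 9634 genes at 10 CPM or more in variant 3 or Smart-Seq2. A read was present in all 7 Smart-Seq2 cells for 7000 of these genes, of which 4210 were also read in all 6 variant 3 cells. Another 533 of the 7000 were read in at most 2 variant 3 cells, and 60 in none of them. In the opposite direction, of the 4724 genes at this level read in all 6 variant 3 cells, 0 were read in 2 or fewer Smart-Seq2 cells. The median GC content of the transcript was 61.0% for the 60 genes read in no variant 3 cell, 59.2% for the 533, and 44.5% for the 4210 genes read in all 13 cells. The difference was also present among abundant genes. Among genes at 100 CPM or more in the pools of cells, variant 3 cells detected a median of 89.1% (78.2 to 97.9%) of the GC-richest quintile after thinning and 99.1% of the GC-poorest quintile, while Smart-Seq2 cells detected a median of 100% of both. Among genes at 20 to 50 CPM in the pools the medians were 57.9% in variant 3 cells and 98.7% in Smart-Seq2 cells for the richest quintile, and 85.9% in variant 3 cells and 95.4% in Smart-Seq2 cells for the poorest. Detection of GC-poor genes of low level was thus also lower in variant 3.

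Levels differed with GC content as well. Of 9634 genes at 10 CPM or more in 1 of the 2 groups, 1916 (19.9%) were at least 2-fold higher in variant 3 and 4151 (43.1%) at least 2-fold lower, on the scale of log2(CPM + 1). The median log2 ratio was -0.54. Ratios of 8-fold or more were 138 higher and 1919 lower. With TMM factors in place of read totals all ratios moved up, the median to 0.02, and the counts became 3118 higher and 3446 lower. Directions of small differences therefore depend on the scaling, and groups of genes are read below against the median of -0.54. Without variant 3 cell 5 and Smart-Seq2 cell 2 there were 1976 genes higher and 4220 lower. Some genes separated the cells. Every variant 3 cell was above every Smart-Seq2 cell for 176 genes (1.83%), and every variant 3 cell was below for 1165 (12.1%). Of the genes measured, 154 had 0 reads in variant 3 and 13 had 0 reads in Smart-Seq2.

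The ratio was lower the richer in GC the transcript was. Spearman's rank correlation between the log2 ratio and GC content was -0.59 across 9578 genes, which are not independent replicates and share the same 13 libraries. In the decile of genes poorest in GC (31.8 to 38.4%) the median log2 ratio was 0.66, with 363 genes at least 2-fold higher and 136 lower. In decile 5 (44.5 to 46.9%) the median was 0.05. In decile 8 it was -1.77, in decile 9 -3.02, and in the richest decile (60.4 to 76.3%) -3.95, with 4 genes higher and 912 of 958 (95.2%) lower. Transcript length added little. Its rank correlation with the ratio was 0.19 and became -0.01 once GC content was held constant, while that of GC content given length was -0.57. In the richest GC quintile the median ratio was -3.54 for the shortest quintile of transcripts and -3.28 for the longest. Other windows of the sequence followed the ratio less closely than the whole transcript. The rank correlation was -0.25 for the first 100 bases, -0.37 for the richest 100-base window and -0.49 for the last 500 bases, and for the 250 bases upstream of the start site, which are not part of the RNA, it was -0.17 in the 7353 genes with a RefSeq promoter sequence (GRCh38.p14), against -0.59 for the transcript in the same genes.

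**Figure D2:**
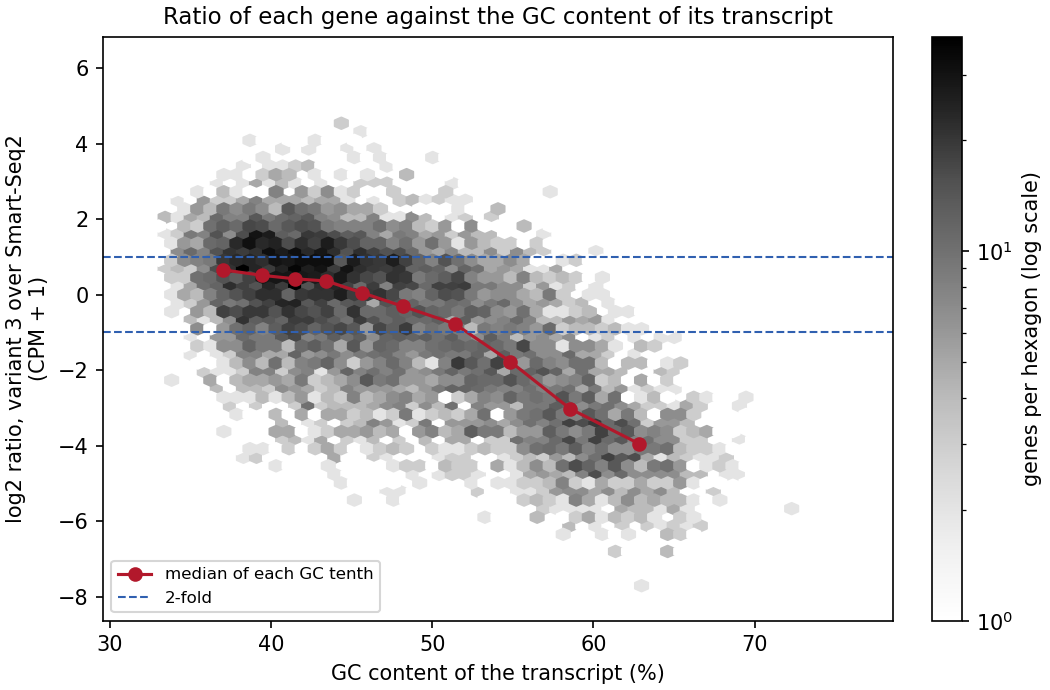
Log2 ratio of variant 3 over Smart-Seq2 for each gene (vertical axis, on CPM + 1) against the GC content of its transcript in percent (horizontal axis). Grey hexagons show the number of genes on a log scale, red points the median of each decile, from 0.66 in the poorest to -3.95 in the richest, and dashed lines a 2-fold ratio.

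The pools of 100, 50 and 10 cells share no library with either group. Per the labels they were made with Smart-Seq2, so they carry any bias of that protocol and a likeness of Smart-Seq2 cells to them is no measure of accuracy. Of the 9 pool libraries 2, both of 100 cells, differed by little more than counting error (mean chi-square 1.81 per gene) and may not be independent. Over 8457 genes at 10 CPM or more in the pools, the median log2 ratio to the pools in the richest GC quintile was -2.95 for variant 3, with single cells from -3.95 to -3.08. For Smart-Seq2 it was 0.27, with cells from -1.03 to 0.32, the lowest being cell 2 and the other 6 between 0.02 and 0.32. In the poorest quintile it was 0.68 for variant 3 and 0.04 for Smart-Seq2, over summed reads. Single cells all lay lower, from -0.11 to 0.56 in variant 3 and from -0.36 to -0.004 in Smart-Seq2. The rank correlation between the ratio to the pools and GC content was -0.60 for variant 3 and 0.08 for Smart-Seq2. The other groups stood at 0.06 for variant 1, 0.03 for variant 2, 0.24 for variant 4 and -0.39 for SMART-Seq. In the richest quintile, SMART-Seq was the other protocol below the pools, at -1.45, while variants 1, 2 and 4 were at 0.20, 0.14 and 0.44.

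**Figure D3:**
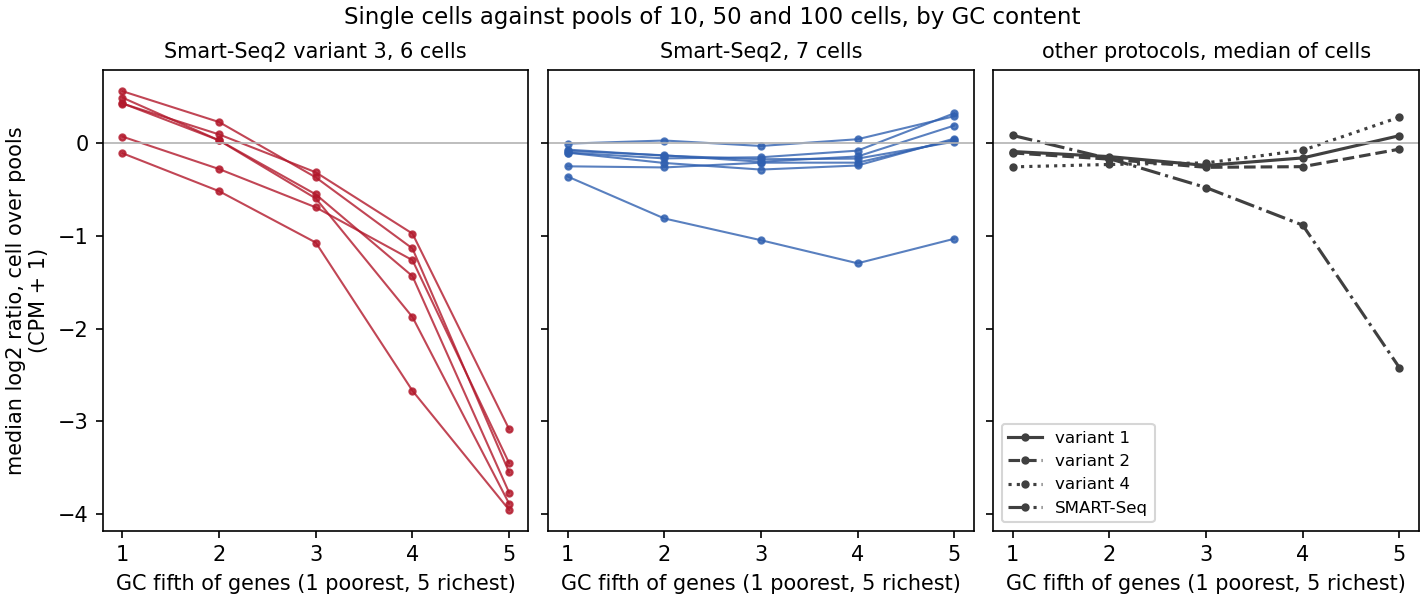
Median log2 ratio of a single cell over the pooled cells (vertical axis, on CPM + 1) in quintiles of genes by GC content (horizontal axis, 1 poorest, 5 richest). Each line in the left and middle panels is a cell, and in the right panel the median of the cells of a protocol. In the richest quintile all 6 variant 3 cells lie at -3.08 or below, and the 7 Smart-Seq2 cells at -1.03 or above.

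Chromosome 19, home to many GC-rich genes and to a large family of zinc finger transcription factors, holds both sides of this contrast. On it 433 genes outside the ZNF family had a median GC content of 60.0% and a median log2 ratio of -3.40, with 12 at least 2-fold higher and 356 lower. The 127 ZNF genes there had a median GC content of 42.3% and a median ratio of 0.27, with 41 higher and 32 lower. Over all genes 19.9% were higher and 43.1% lower. By chromosome the share of genes at least 2-fold lower was 68.7% for 19, 67.2% for 22 and 60.9% for 16, against 23.9% for 18 and 31.1% for 13. With the median of each GC decile subtracted from its genes, the chromosome medians were -0.16 for 19, -0.08 for 22 and 0.05 for 16. They were -0.23 for 18 and -0.38 for 13.

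Genes named for their large ratios, among those at 50 CPM or more in variant 3 and read in all 6 of its cells, had varied roles. TOB1, an antiproliferative protein that recruits the CCR4-NOT deadenylase, had 222, 439 and 837 CPM (lowest, median and highest cell) in variant 3 and 1.32, 28.7 and 53.02 CPM in Smart-Seq2. The groups did not overlap. Summed over cells TOB1 stood at 513 CPM (95% interval 508 to 517) in variant 3 against 30.9 CPM (29.7 to 32.2) in Smart-Seq2, a log2 ratio of 4.01. RC3H1, or roquin, which marks mRNAs for decay, had 92.0, 226 and 489 CPM in variant 3 and 0.0604, 18.1 and 35.004 CPM in Smart-Seq2. TBL1XR1, a subunit of the NCoR corepressor complex, was at 903 CPM in variant 3 and 52.0 CPM in Smart-Seq2. TERF2, a telomere binding protein, was at 86.6 CPM in variant 3 and 4.38 CPM in Smart-Seq2. ANKRD44 was at 71.9 CPM in variant 3 and 0.448 CPM in Smart-Seq2, but its variant 3 cells ran from 0.0359 to 200 CPM, and without variant 3 cell 3 the log2 ratio was 4.53 in place of 5.65. SHISA2 ran from 201 to 2546 CPM in variant 3 and from 0.151 to 216 CPM in Smart-Seq2, with a log2 ratio of 4.76, which was 5.88 without Smart-Seq2 cell 6 and 3.98 without variant 3 cell 3.

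Genes of steadier level were named for the widest gap between cells that do not overlap. Their separation was thus fixed by the choice, and only their levels are read here. DDX47, an RNA helicase of the nucleolus, had 318, 569 and 1030 CPM in variant 3 and 22.8, 64.0 and 112 CPM in Smart-Seq2. SRP9, a subunit of the signal recognition particle, had 624, 704 and 1129 CPM in variant 3 and 130, 185 and 225 CPM in Smart-Seq2. The lowest variant 3 cell of SRP9 was above the highest Smart-Seq2 cell, as the choice required. NDUFB3, a subunit of respiratory complex I, had 233, 287 and 429 CPM in variant 3 and 44.5, 57.9 and 90.8 CPM in Smart-Seq2. SDHD, the membrane anchor of complex II, had 140, 244 and 396 CPM in variant 3 and 31.0, 53.6 and 58.5 CPM in Smart-Seq2. PLS1, an actin bundling protein, had 219, 322 and 412 CPM in variant 3 and 29.7, 50.9 and 87.3 CPM in Smart-Seq2. For several of these genes SMART-Seq cells also stood high: summed over the 4 cells they had 502 CPM of TOB1, 544 CPM of DDX47, 697 CPM of SRP9 and 534 CPM of NDUFB3. In variants 1, 2 and 4 TOB1 was at 118, 54.4 and 74.5 CPM, and the 100-cell pools had 182 CPM. These pools, made with Smart-Seq2, also stood above the single Smart-Seq2 cells for DDX47, SRP9, NDUFB3 and SDHD. They had 237, 679, 266 and 146 CPM, against 71.9, 183, 64.5 and 51.0 CPM summed over Smart-Seq2 cells. In variant 3 the summed levels were 651, 819, 336 and 303 CPM. PLS1 was at 71.3 CPM in SMART-Seq and 74.8 CPM in the 100-cell pools, near its Smart-Seq2 level of 52.9 CPM.

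Genes named for low ratios, by the same rule on Smart-Seq2 cells, or for the widest gap between cells, had varied roles too. BSG, or basigin, a cell surface partner of lactate transporters, had 0.287, 2.27 and 10.3 CPM in variant 3 and 460, 643 and 732 CPM in Smart-Seq2. Its transcript sequence above is the GC-rich kind, and the summed levels were 1.92 CPM (1.66 to 2.21) in variant 3 against 588 CPM (583 to 594) in Smart-Seq2. COPE, a coat protein of Golgi vesicles, had 0, 0.196 and 1.07 CPM in variant 3 and 161, 282 and 383 CPM in Smart-Seq2, or 19 reads in variant 3 against 20026 in Smart-Seq2. WDR34, a dynein intermediate chain, gave 2 reads in variant 3 and 16082 in Smart-Seq2, a ratio of 10364-fold with a counting interval from 2868 to 85585. CLPTM1 gave 1 read in variant 3 against 9247 in Smart-Seq2 (11918-fold, interval 2139 to 470796), and MED16, a subunit of the Mediator complex, 2 in variant 3 against 6489 in Smart-Seq2. These genes were present in every Smart-Seq2 cell, as the choice required, with a lowest cell of 102 CPM for WDR34, 38.3 CPM for CLPTM1 and 53.4 CPM for MED16.

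DDIT4, an inhibitor of mTORC1 induced by stress, had the lowest log2 ratio of the named genes, -7.94, with 0, 0 and 2.13 CPM in variant 3 and 18.9, 229 and 521 CPM in Smart-Seq2. MRPL12, a mitochondrial ribosomal protein, had 0.323, 0.821 and 2.20 CPM in variant 3 and 39.5, 425 and 727 CPM in Smart-Seq2. TOMM40, the pore of the outer mitochondrial import machinery, was at 0.705 CPM in variant 3 and 202 CPM in Smart-Seq2. SMARCB1, a core subunit of the SWI/SNF remodelling complex, was at 0.963 CPM in variant 3 and 273 CPM in Smart-Seq2, and its lowest Smart-Seq2 cell, cell 2, had 0.189 CPM, so its cells overlapped. HSF1, the heat shock transcription factor, was at 0.218 CPM in variant 3 and 143 CPM in Smart-Seq2, and AP2A1, an adaptor of clathrin coats, at 0.0596 CPM in variant 3 and 108 CPM in Smart-Seq2. In other HEK293T cells BSG was at 588, 604 and 751 CPM in variants 1, 2 and 4 and 150 CPM in SMART-Seq, and MRPL12 at 408, 347, 459 and 1.89 CPM. The 100-cell pools had 391 CPM of BSG, 335 CPM of COPE and 497 CPM of MRPL12. For other low genes the pools stood further below the Smart-Seq2 cells. They had 59.9 CPM of DDIT4, 54.4 CPM of TOMM40, 13.9 CPM of HSF1 and 4.47 CPM of AP2A1. CLPTM1 was at 8.23 CPM in the pools and 118 CPM in Smart-Seq2, and MED16 at 19.8 and 83.1 CPM. WDR34 was at 150 and 206 CPM, and SMARCB1 at 191 and 273 CPM.

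**Figure D4:**
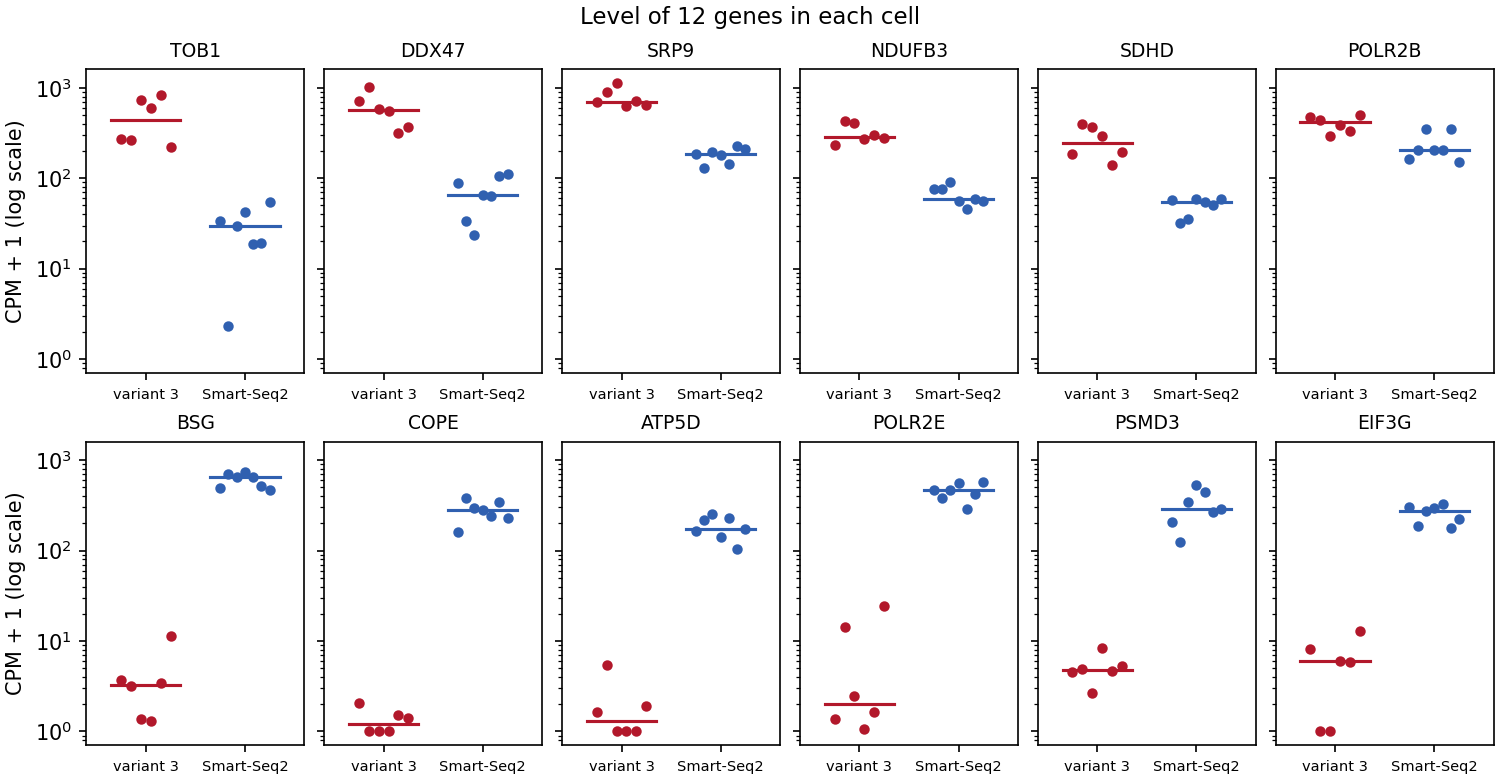
CPM + 1 on a log axis of 12 genes in each variant 3 cell (red, left) and each Smart-Seq2 cell (blue, right), with the median as a line. The upper row holds 5 genes higher in variant 3 and POLR2B, whose cells overlap (295 to 499 CPM in variant 3, 152 to 353 CPM in Smart-Seq2). In the lower row all variant 3 cells lie below all Smart-Seq2 cells.

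Within protein complexes the ratio split by subunit. RNA polymerase II had 0 of 12 subunit genes at least 2-fold higher and 5 (41.7%) lower, the share lower being near the 43.1% of all genes, where 19.9% were higher. POLR2A, the largest subunit, had 1.21, 20.1 and 66.4 CPM in variant 3 and 371, 473 and 901 CPM in Smart-Seq2, a log2 ratio of -4.95. POLR2E, shared by all 3 nuclear polymerases, was at 5.15 CPM in variant 3 and 464 CPM in Smart-Seq2 (-6.24, and -6.91 without variant 3 cell 2). POLR2B, the second largest subunit, was at 392 CPM in variant 3 and 223 CPM in Smart-Seq2 (0.81). The proteasome had 32 measured genes, of which 6 were at least 2-fold higher and 7 lower, with a median log2 ratio of 0.40. PSMC6, an ATPase of the base, had 173, 248 and 257 CPM in variant 3 and 74.6, 86.8 and 115 CPM in Smart-Seq2. PSMD11 was at 1312 CPM in variant 3 and 532 CPM in Smart-Seq2, and PSMA4, of the core ring, at 1826 CPM in variant 3 and 1119 CPM in Smart-Seq2. PSMD3, of the lid, had 1.69, 3.79 and 7.46 CPM in variant 3 and 122, 285 and 532 CPM in Smart-Seq2. The 13 genes of the CCT chaperonin and prefoldin were 2 higher and 3 lower, with CCT2 at 2371 CPM in variant 3 and 1006 CPM in Smart-Seq2 and CCT7 at 273 CPM in variant 3 and 1117 CPM in Smart-Seq2. Within each of these 3 lists the rank correlation between ratio and GC content was negative, at -0.45, -0.45 and -0.40, as a description of few genes.

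Nuclear genes of oxidative phosphorylation counted 77, with 10 at least 2-fold higher, 20 lower and a median log2 ratio of 0.29. Besides NDUFB3 and SDHD on the high side, ATP5A1, the alpha subunit of ATP synthase, was at 1427 CPM in variant 3 and 931 CPM in Smart-Seq2. ATP5B, the beta subunit that pairs with it, was at 736 CPM in variant 3 and 2248 CPM in Smart-Seq2. ATP5D, the delta subunit of the same enzyme and the GC-richest sequence shown, had 0, 0.313 and 4.48 CPM in variant 3 and 103, 171 and 253 CPM in Smart-Seq2, with a log2 ratio of -6.41 (-7.26 without variant 3 cell 2). Mitochondrial ribosomal genes were 19 higher and 31 lower of 74, and MRPL42 stood at 1020 CPM in variant 3 and 340 CPM in Smart-Seq2. Cytosolic ribosomal proteins had 2 of 75 measured genes higher (2.67%) and 12 lower (16%), against 19.9% and 43.1% of all genes, and the summed level was 26101 to 36232 CPM in variant 3 cells and 27538 to 45651 CPM in Smart-Seq2 cells. RPL13 had 15.1, 30.5 and 50.7 CPM in variant 3 and 259, 781 and 1856 CPM in Smart-Seq2. RPL27 had 738, 1212 and 1393 CPM in variant 3 and 157, 474 and 652 CPM in Smart-Seq2. RPL8 was at 924 CPM in variant 3 and 2352 CPM in Smart-Seq2 and RPS4X at 1188 CPM in variant 3 and 1852 CPM in Smart-Seq2. Ribosomal protein genes have many near-identical pseudogenes, and how reads were shared among them is not given in the sources used here, so single members are uncertain. With TMM factors the medians of the cytosolic and mitochondrial ribosomal lists turned from -0.15 and -0.04 to 0.43 and 0.54.

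Other lists of gene expression are read beside the 19.9% of all genes that were higher and the 43.1% that were lower. Translation factors had 7 of 34 genes higher and 8 lower, EIF2S3, the gamma subunit of eIF2, being at 949 CPM in variant 3 and 241 CPM in Smart-Seq2, and EIF3G at 3.47 CPM in variant 3 and 265 CPM in Smart-Seq2. Aminoacyl-tRNA synthetases had 4 of 19 higher and 5 lower, with TARS at 1383 CPM in variant 3 and 542 CPM in Smart-Seq2 and LARS at 1021 CPM in variant 3 and 377 CPM in Smart-Seq2. SR splicing factors had 4 of 12 higher and 5 lower. SRSF6 had 302, 1772 and 2074 CPM in variant 3 and 0.189, 160 and 467 CPM in Smart-Seq2, and SRSF9 0.0717, 7.23 and 17.7 CPM in variant 3 and 56.0, 97.1 and 140 CPM in Smart-Seq2. Nucleolar growth genes had 5 of 24 higher and 10 lower. NCL, or nucleolin, had 277, 434 and 598 CPM in variant 3 and 418, 1783 and 2417 CPM in Smart-Seq2. BOP1, a ribosome assembly factor, had 0 reads in all 6 variant 3 cells and a read in all 7 Smart-Seq2 cells, and was at least 865-fold lower against a floor of 3 reads over the group. Genes with very long transcripts had 8 of 51 higher and 16 lower, FLNA, the actin crosslinker filamin A, being at 0.437 CPM in variant 3 and 76.0 CPM in Smart-Seq2. Small nucleolar RNA host genes had 0 of 14 higher and 7 (50%) lower.

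Several stress and metabolic lists had a larger share of genes at least 2-fold lower in variant 3 than the 43.1% of all genes, while heat shock genes stood near it. ATF4 targets of the integrated stress response had 0 of 20 genes at least 2-fold higher and 14 (70%) lower, with a median log2 ratio of -1.98 beside -0.54 over all genes. Their transcripts had a median GC content of 55.9%. Endoplasmic reticulum stress genes had 3 of 18 higher and 12 (66.7%) lower, with a median of -1.52 at a median GC content of 46.4%. XBP1, the transcription factor of the unfolded protein response, had 0.224, 12.8 and 27.8 CPM in variant 3 and 13.4, 125 and 374 CPM in Smart-Seq2 (-3.77, and -4.42 without variant 3 cell 4). HSP90B1, a chaperone of the endoplasmic reticulum, had 155, 312 and 577 CPM in variant 3 and 613, 916 and 1208 CPM in Smart-Seq2, at a transcript GC content of 42.4%. Its groups did not overlap. Cholesterol synthesis genes had 1 of 24 higher and 13 (54.2%) lower. DHCR7, the last enzyme of the pathway, had 0, 0 and 15.9 CPM in variant 3 and 40.7, 153 and 209 CPM in Smart-Seq2 (-5.76, and -6.50 without variant 3 cell 6). HMGCS1, an early enzyme, was at 219 CPM in variant 3 and 80.7 CPM in Smart-Seq2 and IDI1 at 911 CPM in variant 3 and 512 CPM in Smart-Seq2. INSIG1, the sterol sensor's partner, was at 87.5 CPM in variant 3 and 1039 CPM in Smart-Seq2, a value that rested on 1 cell: its log2 ratio was -3.55 and became -1.50 without Smart-Seq2 cell 1, which had 3978 CPM. Heat shock genes had 3 of 18 higher (16.7%) and 8 lower (44.4%), HSP90AB1 being at 4331 CPM in variant 3 and 2166 CPM in Smart-Seq2, CHORDC1 at 468 CPM in variant 3 and 138 CPM in Smart-Seq2 and DNAJB1 at 24.4 CPM in variant 3 and 157 CPM in Smart-Seq2. Targets of p53 had 3 of 15 higher and 9 (60%) lower. MDM2, which degrades p53, had 157, 464 and 734 CPM in variant 3 and 34.0, 107 and 236 CPM in Smart-Seq2, while CDKN1A, the cell cycle inhibitor p21, gave 1 read in variant 3 and 2229 in Smart-Seq2.

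Glycolysis had 3 of 19 genes higher (15.8%) and 7 lower (36.8%), near the 19.9% and 43.1% of all genes. Its median log2 ratio was 0.29 at a median GC content of 55.1%. ENO1, or enolase, is an exception to the GC trend: at 58.9% GC it had 5114, 6203 and 11238 CPM in variant 3 and 734, 3726 and 5006 CPM in Smart-Seq2. LDHB was at 4318 CPM in variant 3 and 3536 CPM in Smart-Seq2. PFKL, a phosphofructokinase of 63.5% GC, had 0 reads in variant 3 and 2.25, 59.3 and 96.1 CPM in Smart-Seq2, at least 1760-fold lower against the floor of 3 reads over the group. The glycolysis list rested on variant 3 cell 5, where it summed to 51925 CPM against 14450 to 22965 CPM in the other 5 cells, and its median became -0.47 without that cell.

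Cell cycle genes were listed by phase, and no difference between the phases was tested. The G2/M list had 11 of 47 genes at least 2-fold higher (23.4%) and 9 lower (19.1%). The G1/S list had 5 of 35 higher (14.3%) and 16 lower (45.7%), near the 19.9% and 43.1% of all genes. The G2/M genes were of lower GC content, 43.2% at the median, and the G1/S genes of 49.1%. The G2/M median of 0.29 became 0.96 without Smart-Seq2 cell 2 and 0.063 without variant 3 cell 4, and it was below 0 under 4 other settings, down to -0.37 with DESeq2 size factors. TOP2A, which untangles DNA in mitosis, had 858, 1871 and 2465 CPM in variant 3 and 152, 271 and 1794 CPM in Smart-Seq2, a log2 ratio of 1.37 that was 2.11 without Smart-Seq2 cell 1. KIF18A, a mitotic kinesin, was at 293 CPM in variant 3 and 63.1 CPM in Smart-Seq2, and TACC3, a spindle protein, at 10.6 CPM in variant 3 and 204 CPM in Smart-Seq2 (-4.13, and -3.54 without Smart-Seq2 cell 2). POLA1, a DNA polymerase subunit, had 97.3, 240 and 271 CPM in variant 3 and 0, 67.5 and 145 CPM in Smart-Seq2. CDT1, which licenses replication origins, was at 0.387 CPM in variant 3 and 90.6 CPM in Smart-Seq2, and the helicase subunit MCM3 at 703 CPM in variant 3 and 636 CPM in Smart-Seq2. MCM7, of the same helicase, was at 690 CPM in variant 3 and 602 CPM in Smart-Seq2. Immediate early genes had 2 of 11 higher and 5 lower. MYC had 0.251, 18.2 and 281 CPM in variant 3 and 12.9, 435 and 1085 CPM in Smart-Seq2 (-3.59, and -5.16 without variant 3 cell 1), and IER2 4 reads in variant 3 against 3530 in Smart-Seq2. Nuclear long non-coding RNAs were 3 higher and 0 lower of 5, with MALAT1 from 119 to 12469 CPM in variant 3 and 601 to 4678 CPM in Smart-Seq2, and TUG1 at 375 CPM in variant 3 and 59.5 CPM in Smart-Seq2. H3F3B, a histone H3.3 gene, was at 3447 CPM in variant 3 and 1263 CPM in Smart-Seq2.

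To ask what was left once base composition was set aside, the median ratio of each GC decile was subtracted from its genes. Of 9578 genes 2290 (23.9%) were then at least 2-fold higher in variant 3 and 2621 (27.4%) at least 2-fold lower. Several lists that had leaned lower came to the middle. The median of cholesterol genes became -0.03, with 4 higher and 5 lower, and that of p53 targets 0.12, with 4 higher and 5 lower. RNA polymerase II went past the middle to the higher side, to 0.72, with 6 of 12 higher and 3 lower. The ATF4 list came from -1.98 to -0.80, with 2 higher and 9 lower, and the endoplasmic reticulum stress list from -1.52 to -0.94, with 3 higher and 7 lower. Ribosomal proteins came to 0.18 (21 higher, 5 lower), oxidative phosphorylation to 0.56 (28 higher, 5 lower), tRNA synthetases to 0.86 (7 higher, 2 lower) and glycolysis to 1.11 (11 higher, 3 lower). The glycolysis value was not recomputed without variant 3 cell 5. Level was not set aside. In GC quintile 4 the median log2 ratio was -0.27 at 300 CPM or more in the pools and -1.40 at 30 to 100 CPM. In quintile 5 it was -2.85 and -3.69. The part of level in these list medians was not tested. Among genes of the richest GC decile the 4 that were at least 2-fold higher were IGFBPL1, CNNM3, MANEAL and SPIRE2, named after their values were seen. IGFBPL1 had 63.5, 66.7 and 134 CPM in variant 3 and 1.27, 21.8 and 90.6 CPM in Smart-Seq2 at 62.4% GC (1.65, and 2.32 without Smart-Seq2 cell 3). The other 3 had a cell at 0 in variant 3, and SPIRE2 was lower in variant 3 without cell 2. Against the trend on the other side, 20 genes of the poorest GC decile were at least 8-fold lower. MAPK8, the kinase JNK1, was the lowest of them and was also named after its value was seen: at 37.5% GC it had 0, 0 and 7.41 CPM in variant 3 and 41.6, 70.8 and 160 CPM in Smart-Seq2 (-5.72, and -6.38 without variant 3 cell 5).

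**Figure D5:**
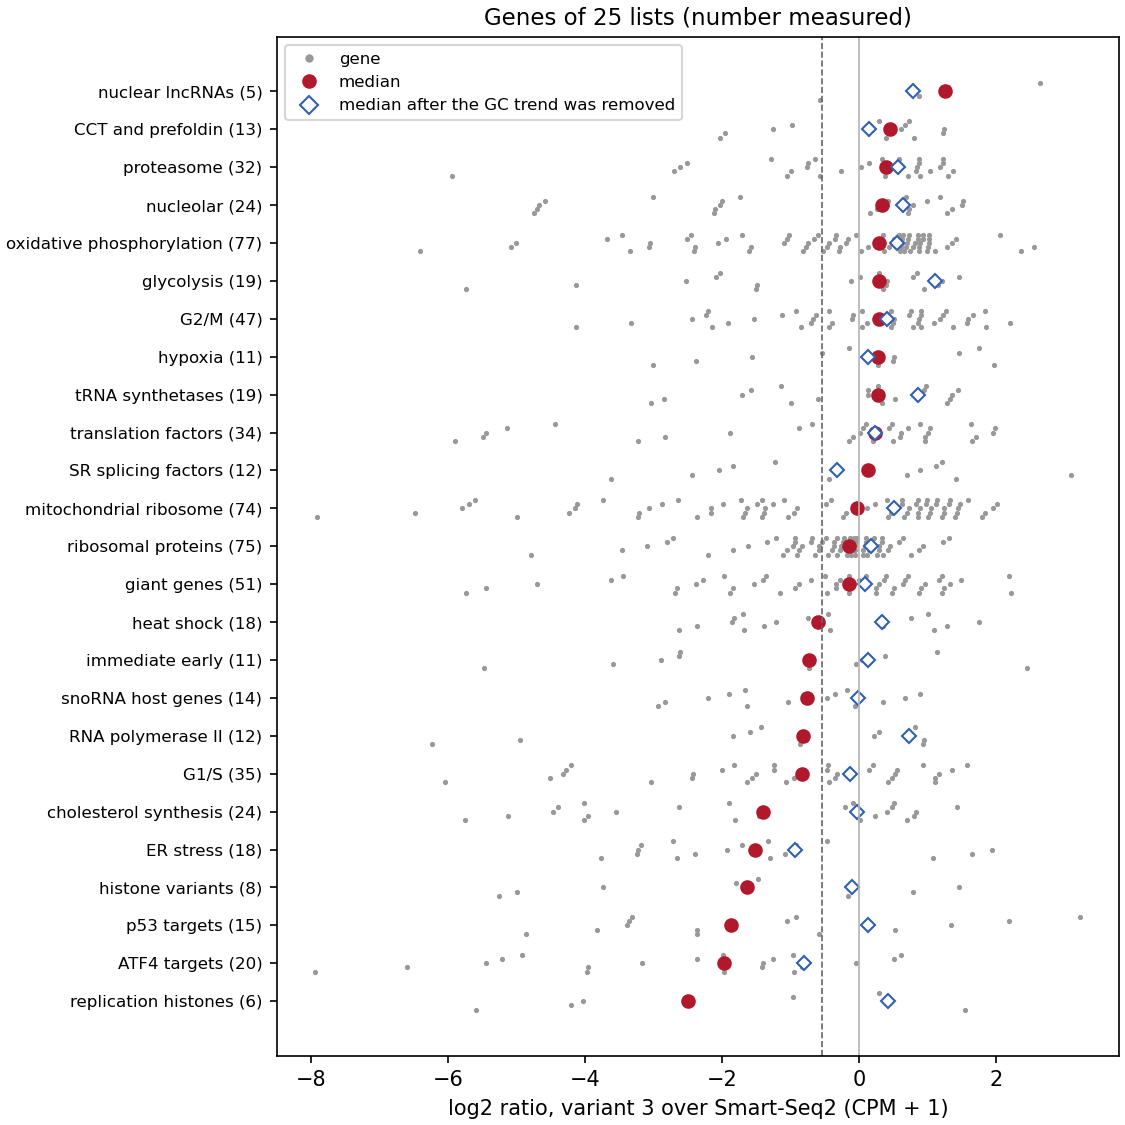
Log2 ratio of variant 3 over Smart-Seq2 (horizontal axis, on CPM + 1) for the genes of 25 lists, with the number measured in parentheses. Grey dots are genes, red points list medians, open diamonds list medians after the GC trend was removed, and the dashed line the median of all genes, -0.54. Medians run from -2.50 for replication histones to 1.26 for nuclear long non-coding RNAs, and after removal from -0.94 to 1.11.

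Likeness between cells was of similar size within each group. Across the 8457 genes of the pools, Pearson's r of log2(CPM + 1) between variant 3 cells was 0.65 at the median of 15 pairs (0.58 to 0.70), and between Smart-Seq2 cells also 0.65 at the median of 21 pairs (0.39 to 0.74). Between a variant 3 and a Smart-Seq2 cell it was 0.42 (0.31 to 0.52). A variant 3 cell had an r of 0.58 to 0.63 with the pools, and a Smart-Seq2 cell 0.53 to 0.78. These are correlations across genes, which are not independent. Spread between cells differed between GC quintiles in variant 3. Among genes at 100 CPM or more in the pools, the median SD of log2(CPM + 1) over cells was 0.79 in the poorest and 1.35 in the richest GC quintile in variant 3, and 0.70 and 0.71 in Smart-Seq2. Spread also differed with level. Over all GC contents the median SD was 0.88 in variant 3 and 0.69 in Smart-Seq2 at 100 CPM or more in the pools. At 50 to 100 CPM in the pools it was 1.58 in variant 3 and 0.97 in Smart-Seq2. The richest GC quintile of the 8457 genes stood below the pools in variant 3, at a median log2 ratio of -2.95. The part of level in the difference between quintiles was not tested.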

How the data were processed

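Each deposited table lists genes with 2 columns. Per the file headers one is a count of reads, and its values are whole; the other is RPKM, computed by the authors and used here only as an alternative. The submitters' processing notes name STAR, without a version, and hg19 (GRCh37). The deposited genes carry RefSeq accessions. How reads were counted, on which strand and with several matches is not given in the sources used here.

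The 24249 entries gave 23571 symbols, whose reads were added up, first over entries and then across the cells of each group, and scaled to CPM. Ratios are log2 of variant 3 over Smart-Seq2 with 1 CPM added to both, for genes at 10 CPM or more in 1 group. Each group counts as 1 sample, so there is no test, and intervals are exact 95% Poisson intervals. A gene with 0 reads was bounded against 3 reads over the group. Cells were thinned without replacement to 5 M reads (1 M being 1000000), with a fixed seed. Length and GC content are those of the longest GENCODE 29 transcript matched by RefSeq accession (22418 symbols) or symbol (599). The steps were tested on simulated data. Software was Python 3.11.15, numpy 2.4.6, pandas 2.3.3, scipy 1.17.1, R 4.3.3, edgeR 4.0.16 for TMM factors and DESeq2 1.42.0 for size factors.

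The groups, gene lists and genes were chosen with earlier results of these data known. Named genes were the 12 largest ratios in each direction among genes at 50 CPM or more in the higher group, read in every cell of it and 2-fold apart in medians over cells. To these were added the 10 with the widest gap between cells that do not overlap, and of each list the 2 with the highest mean and the extreme ratio in each direction. The text gives a part of them. Alternatives were equal weight of cells, medians over cells, thinning, other scalings, pseudocounts, filters, RPKM, and leaving out each cell.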

Additional observations from a re-analysis of the deposited data

Results flagged for a closer look

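A cell was marked where its gap to the nearest other cell of its group passed Dixon's 95% critical value, for 196 sets of values: library measures, summed levels of lists, and named genes on log2(CPM + 1). Chance marks about 1 in 20 sets, and 33 values were marked, of which 7 were in variant 3 cell 5 and 20 in Smart-Seq2 cell 2. No explanation of these values was tested.

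Variant 3 cell 5 gave 36.6% of its reads to its 100 most abundant genes, against 20.7% in the next cell. Its glycolysis genes summed to 51925 CPM, against 22965 CPM in the next cell. It was the lowest variant 3 cell for chaperonin and prefoldin genes (5321 CPM), mitochondrial ribosomal genes (7426 CPM), translation factors (8073 CPM), tRNA synthetases (4234 CPM) and CCT2 (470 CPM). Variant 3 cell 6 was low for the HEK293T markers (1231 CPM), cell 2 for genes with very long transcripts (3567 CPM) and DNAJB1 (0 CPM), and cell 4 for SRSF9 (0.0717 CPM).

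Smart-Seq2 cell 2 was the lowest of its group for G1/S genes (1846 CPM), immediate early genes (71.9 CPM), mitochondrial ribosomal genes (6090 CPM), nucleolar genes (1296 CPM), translation factors (7064 CPM) and tRNA synthetases (2832 CPM), and the highest for histone variants (6474 CPM). It was also the lowest for TOB1 (1.32 CPM), MRPL12 (39.5 CPM), SMARCB1 (0.189 CPM), PSMD11 (230 CPM), EIF2S3 (37.8 CPM), RPL27 (157 CPM), TARS (65.8 CPM), SRSF6 (0.189 CPM), NCL (418 CPM), CDT1 (5.87 CPM), MCM3 (2.27 CPM), MCM7 (201 CPM) and IER2 (3.59 CPM). Smart-Seq2 cell 1 was low for CCT7 (718 CPM) and cell 5 for PFKL (2.25 CPM).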

How the results depend on the processing

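Of the 5 main results, the difference in genes detected and the rank correlations kept their sign under every alternative run for them. The correlations were not run with other scalings or pseudocounts. The counts of genes higher and lower have no sign to keep, so only their size was compared. Leaving out each of the 13 cells gave 1855 to 1991 genes at least 2-fold higher in variant 3, 4087 to 4266 lower, a difference of -3191 to -2503 in genes detected, a rank correlation with GC content of -0.59 to -0.57 and one with transcript length of 0.18 to 0.20. Counts moved by over 1.5 times with TMM factors (3118 genes higher), with no filter on low values (6297 lower), with at least 50 CPM in 1 group (1891 lower) and, chosen after seeing the data, with the GC trend removed (2621 lower). The filters alter how many genes enter, and for the other settings the cause was not tested. With no filter the rank correlation was 0.085 for length and -0.46 for GC content, and with the shortest matched transcript in place of the longest, also chosen after seeing the data, that for length was 0.12. A direction was counted as reversed where the reported log2 value was 1 or more in size and changed sign. By this measure 2 of 7 list medians, those of histone and p53 genes, reversed with the GC trend removed, to 0.41 and 0.12, and of 68 genes SPIRE2 reversed when cells were left out, which gave -1.21 (without variant 3 cell 2) to 2.46 (without Smart-Seq2 cell 4). Of the 18 smaller list medians 10 changed sign under at least 1 alternative, so their directions are not stable: RNA polymerase II, heat shock and immediate early genes with the GC trend removed, ribosomal protein and giant genes with that and with TMM factors, glycolysis without variant 3 cell 5 (alone or with Smart-Seq2 cell 2), hypoxia with medians over cells, and SR splicing (4 of 23 alternatives), G2/M (4) and mitochondrial ribosomal genes (13). Of 10 genes with smaller ratios MCM3 changed sign, with -0.057 without variant 3 cell 1. No paired analysis was possible because each group counts as 1 sample and no number pairs the cells. Ratios of the low genes rest on few reads in variant 3, such as 0 for PFKL, 1 for CLPTM1, 4 for IER2, 19 for COPE and 98 for MRPL12.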

Other observations

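Some lists stand outside the comparisons above. They are read beside the 19.9% of all genes that were at least 2-fold higher in variant 3 and the 43.1% that were lower. Of 8 measured histone variant genes, which unlike replication histones are polyadenylated, 1 (12.5%) was at least 2-fold higher in variant 3 and 5 (62.5%) were lower. Their summed level went the other way at the median cell, with 7155 CPM in variant 3 (3138 to 9397 CPM) and 3807 CPM in Smart-Seq2 (3403 to 6474 CPM). Replication histones, whose RNAs mostly lack a poly(A) tail, had 6 measured genes, 1 higher (16.7%) and 3 lower (50%), near the shares of all genes. They summed to 83.4 to 2674 CPM in variant 3 cells and 171 to 845 CPM in Smart-Seq2 cells. Hypoxia response genes had 3 of 11 higher (27.3%) and 3 lower (27.3%), and summed to 380 to 3352 CPM in variant 3 cells and 294 to 1091 CPM in Smart-Seq2 cells.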
